A study of Homo sapiens with 8 samples.

Results

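The comparison covers RNA pulled down for N4-acetylcytidine (ac4C) with a specific antibody from the human osteosarcoma line 143B, in control cells (genotype NC) and in cells with a NAT10 knockout (genotype sgNAT10), with 1 library a side. The members are protein-coding genes: 15350 of the 31395 peaks counted in the series lay in a single protein-coding gene, and of the 6773 genes with such a peak, 2760 averaged at least 100 counts over both 143B libraries. The series lists 8 samples, an antibody and an input sample for each genotype of 143B and of the line HOS. The 2 antibody libraries of HOS (NC and sgNAT10) are given only beside the 143B values. 143B is a tumour-forming derivative of HOS. All groups are untreated cultured cells as far as the labels go. They do not say whether the knockout cells are 1 clone or a mixed pool, nor whether the libraries came from separate cultures.

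NAT10 is the acetyltransferase that writes ac4C into RNA. Its best known substrates are ribosomal and transfer RNA, and messenger RNAs have been reported as targets, where ac4C has been linked to stability and translation. In acRIP, fragmented poly(A)-selected RNA is pulled down with an antibody against ac4C, and each enriched stretch of the genome is counted as a peak. A peak near the 3′ end of a gene therefore counts fragments from the last part of the transcript, next to the poly(A) tail used for selection, and an internal peak can hold exon or intron sequence.

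Each value below is a raw count or a shift, the log2 difference in scaled CPM (counts scaled to a common library size) of the library labelled sgNAT10 over the NC library (prior count of 1). A shift of 1 is a 2-fold difference. With 1 library a side no test was possible, so every difference lacks a replicate check. The 95% intervals cover counting error only, and without molecular identifiers reads may be copies of 1 molecule. In such bulk samples, fewer cells expressing a gene and less RNA per cell cannot be told apart, and without input a shift mixes RNA level with enrichment.

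The peak of the targeted gene was higher, not lower, in the 143B library labelled sgNAT10. NAT10 (chromosome 11, 34105629 to 34146908 on GRCh38) had a single peak of 151 bp, 101 bp from its 3′ end, with 65 counts in NC against 130 in the library labelled sgNAT10, a shift of 0.50 (0.06 to 0.95). In HOS the same peak had 180 and 63 counts, a shift of -1.85. Counts at 1 peak without input do not show whether the gene was knocked out. The 143B library is called "the library labelled sgNAT10" throughout, and directions are those of the labels. The mean count of NAT10 is below the minimum of 100, so it is not among the 2760 genes. Peaks near 3′ ends were higher in general in this library, as described below, and the NAT10 peak is one of them.

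Totals over all peaks were 20107718 counts in 143B NC and 22365529 in the library labelled sgNAT10, of which 10.8% and 9.72% fell in protein-coding genes. The ribosomal RNA genes on the short arm of chromosome 21 and the peaks between them held 42.6% and 34.0%. Ribosomal RNA does not carry the poly(A) tail of messenger RNA, so the libraries held much besides poly(A)-tailed RNA. Another scaling moves every 143B shift by a constant, between -0.09 (DESeq2-type size factors) and 0.35 (library totals alone), so differences between genes or peaks do not depend on it. Markers of the mesenchymal lineage had peaks in 16 of 25 genes, with summed levels of 793 CPM in NC against 597 CPM in the library labelled sgNAT10, led by VIM (9700 and 6923 counts). Of the 11 mesenchymal markers measured, 7 were above 0 and 1 was 2-fold lower (median 0.30). Epithelial markers had peaks in 2 of 19 genes, with 4.07 and 2.49 CPM. Haematopoietic markers had peaks in 6 of 16 genes, with 11.2 and 13.2 CPM, and endothelial markers in 4 of 12, with 9.09 and 9.64 CPM. The other 17 epithelial, 10 haematopoietic and 8 endothelial markers had no assigned peak, among them EPCAM, CD3E, CD14, PECAM1 and CDH5. COL1A1, COL1A2 and TWIST1 were among the mesenchymal markers without one. Some small stable RNAs, named after their values were seen, were lower in both lines, in 143B under every scaling: RN7SK, the RNA that restrains transcription elongation, went from 10796 to 8516 counts in 143B, a shift of -0.84 (-0.71 in HOS). RMRP, the RNA of RNase MRP, had -0.91 (-1.02 in HOS), and RPPH1, the RNA of RNase P, had -0.48 (-0.77 in HOS).

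Across the 2760 genes, the median shift was -0.02 with an interquartile range of -0.99 to 0.67, and the lower side was the heavier. At least 2-fold higher in the library labelled sgNAT10 were 377 genes (13.7%) and at least 2-fold lower 682 genes (24.7%). At 4-fold the counts were 44 (1.59%) and 238 (8.62%), or 10.2% together. In HOS, 271 of the same genes (9.82%) were 2-fold higher and 489 (17.7%) 2-fold lower. Under every scaling tried, 318 genes stayed 2-fold higher and 497 stayed 2-fold lower. With library totals alone the split turned, to 704 higher and 497 lower, and with upper quartile factors it was 571 and 563. Of the 682 lower genes, 433 were above 0 in HOS (median 0.30), against 1073 of all 2760 (median -0.25). Of the 377 higher genes, 247 were below 0 in HOS (median -0.45), a share near that of all genes, 1687 of 2760. The difference between lines was not tested. Just below the count minimum, the 198 genes averaging 90 to 100 counts had a median of 0.40, and the 181 with 100 to 110 had 0.20.

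Higher and lower genes differed in the peaks they were made of. Among the higher genes, 61.3% had a single peak and 33.4% took at least 50% of their count from peaks within 500 bp of the 3′ end. The shares over all genes were 35.1% and 18.8%. Among the lower genes, 21.4% had a single peak and 2.35% took as much from the 3′ end. Wide internal peaks (1000 bp or wider, over 500 bp from both ends) gave at least 50% of the count in 19.5% of lower genes and 1.86% of higher genes. This share was 1.41% in the genes between, close to that of the higher genes, and 5.94% in all genes. Sorted into sixths by the width of their widest peak, the genes had medians between -0.30 and 0.34 up to 564 bp, and -1.52 above that, where the HOS median was 0.69. By the length of the gene span, medians went from 0.50 in the shortest sixth (up to 9.46 kb) to -0.65 in the fifth (107 to 270 kb), and the longest genes were at 0.02. Genes with 1 or 2 peaks had a median of 0.27 and those with 6 or more -0.51.

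Counts lay further toward the 3′ ends of genes in the library labelled sgNAT10. Strand was taken from a RefSeq table of gene starts, which gave it for 15842 of 20056 protein-coding genes. The 594 narrow peaks (under 300 bp) that ended within 100 bp of the 3′ end had a median shift of 0.98, and 97.5% of them were above 0. The median was 0.64 at 100 to 200 bp, 0.46 at 200 to 500 bp and 0.40 at 1 to 2 kb. It lay at -0.53 at 2 to 5 kb, at -0.72 at 10 to 20 kb and at -0.40 beyond 100 kb. In HOS the medians were lowest near the 3′ end (-0.75 to -0.63 within 2 kb) and -0.04 beyond 100 kb. Loss of counts toward the 5′ side is also a known sign of RNA quality in poly(A)-selected libraries, and its part in the results below was not tested.

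**Figure D1:**
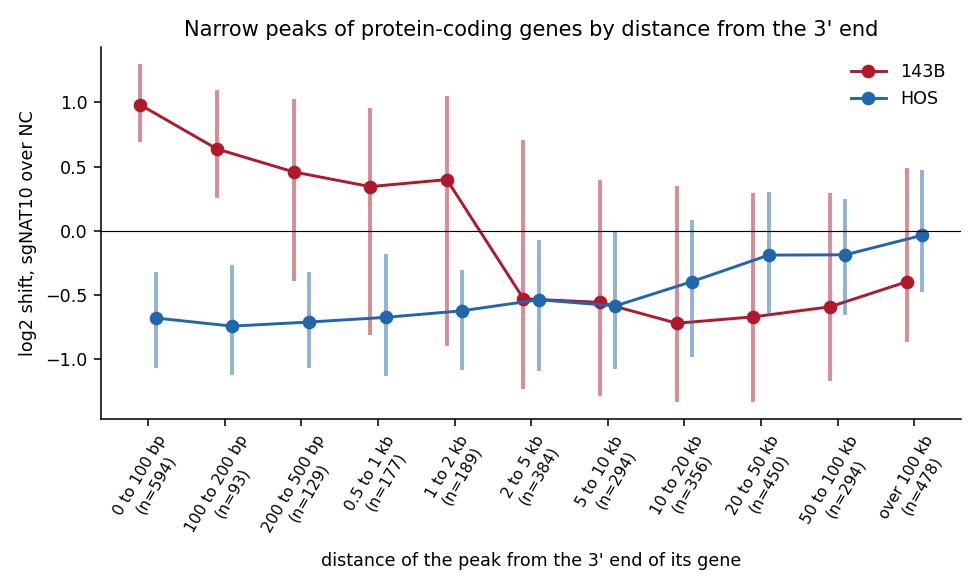
Median log2 shift (points) and interquartile range (bars) of narrow peaks in protein-coding genes that average at least 50 counts, by the distance of the peak from the 3′ end of its gene, in 143B and HOS. In 143B the median is 0.98 within 100 bp of the 3′ end and below 0 from 2 kb on, while the HOS medians lie between -0.75 and -0.04.

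By class, peaks near 3′ ends were the only group with a median above 0 in 143B among those averaging at least 50 counts. The 924 3′-end peaks had a median of 0.85, with 87.4% above 0, against -0.69 in HOS. The 177 peaks near 5′ ends had -1.32, with 15.3% above 0 (-0.36 in HOS). Narrow internal peaks, the largest class with 2622, had -0.52 (-0.36 in HOS), and the 735 internal peaks between narrow and wide (300 bp up to 1000 bp) had -1.399 (0.41 in HOS). The 288 wide internal peaks were lowest, at -2.22, and 94.4% of the same peaks were above 0 in HOS, with a median of 0.91. Width separated the 3′-end peaks too: 816 narrow 3′-end peaks had a median of 0.91, 95 of middle width had 0.31, and of the 13 that were 1000 bp or wider none was above 0 (median -1.62). As shares of all counts in protein-coding genes, 3′-end peaks went from 11.98% in 143B NC to 21.02% in the library labelled sgNAT10, wide internal peaks from 19.4% to 7.49% and narrow internal peaks from 34.4% to 41.8%. In HOS, 3′-end peaks went from 15.05% to 11.5% and wide internal peaks from 11.8% to 20.5%.

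**Figure D2:**
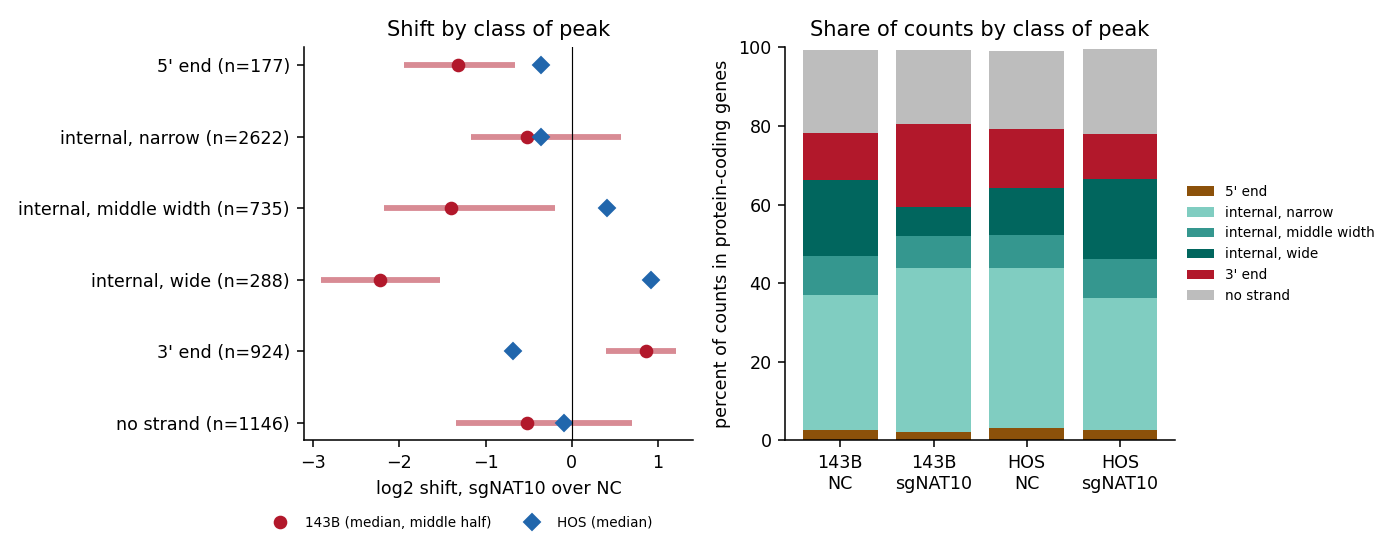
Left, median log2 shift by class of peak, with the interquartile range in 143B, and n the number of peaks averaging at least 50 counts. Right, the percentage of counts in protein-coding genes held by each class in the 4 libraries, where 3′-end peaks go from 11.98% to 21.02% and wide internal peaks from 19.4% to 7.49% in 143B; the remainder up to a full bar is peaks near both ends.

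The same order held inside genes, where every peak comes from 1 locus. In 296 genes with a 3′-end peak and another peak, the 3′-end peak lay above the others by a median of 1.398, and it was above them in 281 genes. The corresponding HOS values were 0.13 and 189 genes. Against the 5′-end peak of the same gene the difference was 1.71, above 0 in 38 of 41 genes. Peaks near 5′ ends lay 0.45 below narrow internal peaks of the same gene (-0.45 as a difference, 67 genes). Wide internal peaks lay below narrow internal peaks of the same gene in 143B (-1.06, above 0 in 14 of 93 genes) and above them in HOS (0.62, above 0 in 78). Taking both ends together, peaks within 500 bp of either end lay above the others by a median of 1.01 over 410 genes, with a difference above 0 in 337 and of at least 1 in 205. Among 407 genes with at least 3 such peaks, the most 3′ peak had the highest shift in 224 (55.0%), against 108 if every position were equally often the highest, and in 136 (33.4%) in HOS. The shift was higher at every step from 5′ to 3′ in 101 genes and lower at every step in 27, against 62 and 50 in HOS.

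VIM, which encodes the intermediate filament vimentin and is a defining mesenchymal marker, shows the redistribution at high counts. From 5′ to 3′ its 4 peaks had 4535, 2453, 1998 and 714 counts in NC. In the library labelled sgNAT10 they had 1714, 1212, 1369 and 2628. The shifts were -1.90, -1.51, -1.04 and 1.38, so the last peak, 23 bp from the 3′ end, turned from the lowest of the gene to the highest. In HOS the same peaks lay between -0.08 and 0.10. The gene sum of VIM, -0.98, holds both movements.

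TFRC, the transferrin receptor gene through which cells take up iron, had 6 internal peaks between -1.45 and -1.09. Its last peak, 12 bp from the 3′ end, went from 90 to 486 counts, a shift of 1.93 (1.61 to 2.28). All 7 peaks were lower in HOS, between -3.28 and -2.20. TMBIM6, a membrane protein of the endoplasmic reticulum that limits cell death, had 4 internal peaks between -1.32 and -1.11 and a 3′-end peak that went from 105 to 572 counts, a shift of 1.94. In SLC38A2, an amino acid transporter, the internal peaks lay between -1.65 and -0.73 and the 3′-end peak went from 54 to 310 counts, a shift of 2.01. HMGA2, a chromatin architecture protein of mesenchymal tumours, and CLMP, an adhesion molecule, have no strand in the table used. Each had 1 peak within 88 bp of an end of its span with a shift of 1.88 and 1.72, while their other peaks lay between -1.90 and -0.77. These 6 genes had the largest differences between peaks near an end and the others among 74 genes with at least 4 peaks averaging at least 100 counts each, 2.87 (VIM) to 3.44 (CLMP).

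**Figure D3:**
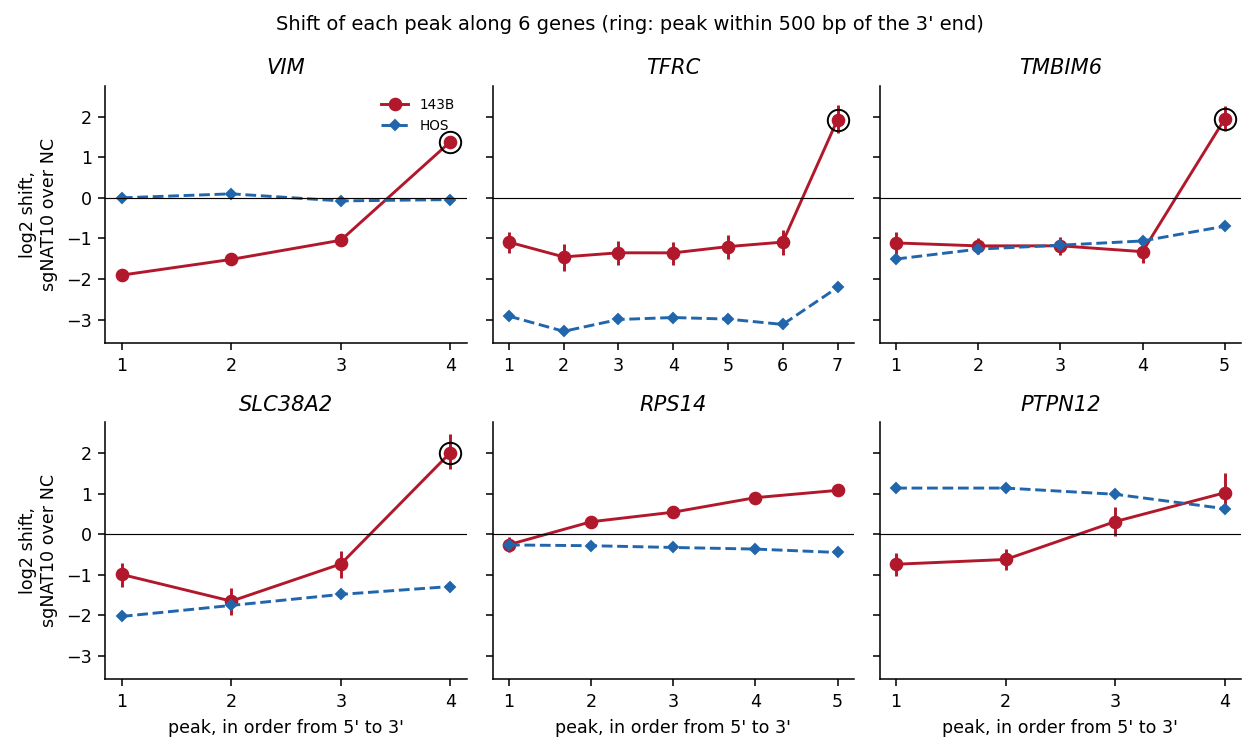
Log2 shift of each peak averaging at least 100 counts, in order from 5′ to 3′, for 6 genes in 143B (circles, with 95% counting intervals) and HOS (diamonds). The 3′-end peaks of VIM, TFRC, TMBIM6 and SLC38A2 (rings) stand at 1.38 to 2.01 above internal peaks below 0, and RPS14 and PTPN12 go from -0.26 to 1.08 and from -0.74 to 1.02 without a ringed peak.

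The 4 smallest differences belonged to genes whose peak near an end was not at a known 3′ end. RPS14, a protein of the small ribosomal subunit, had 442, 1396, 2292, 1599 and 1123 counts from 5′ to 3′ in NC and 522, 2436, 4710, 4210 and 3349 in the library labelled sgNAT10. Its shifts went up at each step, -0.26, 0.31, 0.54, 0.90 and 1.08, and its peak near an end is the first. PTPN12, a tyrosine phosphatase of focal adhesions, went from -0.74 at its 5′ end through -0.62 and 0.31 to 1.02. UBASH3B, a phosphatase that acts on receptor kinases, had -1.16 at its 5′ end and a wide internal peak with 6983 and 4494 counts at -1.13 (0.36 in HOS), with its 2 most 3′ peaks at 0.11 and -0.00. In SFPQ, a splicing factor with no strand in the table, 6 peaks went down along the span from 0.57 (115 counts in NC against 241) to -2.68 and then -2.16 (1173 and 370 counts).

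The start regions of 4 genes with a peak at each end are shown because their 5′ and 3′ peaks can be compared within 1 gene. They are the genes of highest count at the 5′-end peak among those whose 5′-end peak reaches the first 30 transcribed bases and which also have a 3′-end peak, each with 100 bases before and 30 after the annotated start (RefSeq, GRCh38.p14, plus strand). CCGCCG is a run of C-led triplets of the kind reported around ac4C sites; capitals mark it or its complement CGGCGG, where overlapping matches run together. In RPS21 and EIF4G1 the capitals are CCGCCG and lie before the annotated start, outside the annotated transcript. In HPCAL1 and UBALD2 they lie after the start but are CGGCGG, the complement. No CCGCCG is thus marked in the 30 transcribed bases shown for any of the 4 genes. The rest of each transcript is not shown, so the sequences do not tell whether it holds CCGCCG.
RPS21, chr20:62387003-62387132: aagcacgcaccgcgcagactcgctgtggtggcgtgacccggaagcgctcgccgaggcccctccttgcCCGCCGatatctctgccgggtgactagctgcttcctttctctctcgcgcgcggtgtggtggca
HPCAL1, chr2:10302804-10302933: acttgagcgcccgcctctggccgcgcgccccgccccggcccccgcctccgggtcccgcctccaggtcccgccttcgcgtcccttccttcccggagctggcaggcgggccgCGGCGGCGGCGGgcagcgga
UBALD2, chr17:76265248-76265377: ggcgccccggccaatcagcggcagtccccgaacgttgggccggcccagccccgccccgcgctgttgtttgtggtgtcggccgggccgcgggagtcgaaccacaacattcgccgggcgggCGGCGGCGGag
EIF4G1, chr3:184314506-184314635: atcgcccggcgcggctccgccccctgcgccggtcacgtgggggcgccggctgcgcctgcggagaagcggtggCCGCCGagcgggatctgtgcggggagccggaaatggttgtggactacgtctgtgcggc

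In RPS21, a small-subunit ribosomal protein with a short gene, the 5′-end peak went from 2705 to 4405 counts (0.21) and the 3′-end peak from 2079 to 6039 (1.04). HPCAL1, a neuronal-type calcium sensor, had a 5′-end peak of 1740 bp that went from 614 to 142 counts (-2.60, and 1.67 in HOS), and a 3′-end peak that went from 22 to 101 (1.66). In UBALD2 both ends were lower, from 462 to 156 counts at the 5′ end (-2.06) and from 357 to 230 at the 3′ end (-1.13). EIF4G1, the scaffold of the cap-binding complex, had -1.58 at the 5′ end (403 and 190 counts) and -0.01 at the 3′ end (563 and 788 counts). The 3′ peak was thus the higher one in each of the 4 genes, whatever the sign. Over windows of 300 bp around the start, 61 overlapped a 5′-end peak. Of these, 65.6% held CCGCCG on either strand against 37.9% of all 22199 windows, and their median GC content was 70.7% against 62.3%. The 40 peaks with a match had a median shift of -1.32 and the 21 without -1.86.

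Wide internal peaks held most of the count in nearly all of the 12 lowest genes. MAN2B2, an alpha-mannosidase of glycan breakdown, went from 1895 counts in NC to 210 in the library labelled sgNAT10, a shift of -3.66 (-3.88 to -3.47), with 87.4% of its count in a peak of 3815 bp. PPP6R2, a regulatory subunit of protein phosphatase 6, went from 2673 to 299 counts (-3.65), with 93.3% in a peak of 5740 bp. ADAMTS12, a secreted metalloprotease of the extracellular matrix, had the highest count of the 12. Its 27 peaks went from 12791 to 1697 counts, a shift of -3.41 (-3.49 to -3.34), and wide peaks held 75.6%. BANP, a nuclear DNA-binding protein, went from 9539 to 1343 counts (-3.33), and CUL4A, the scaffold of a ubiquitin ligase, from 3709 to 497 (-3.39). The remaining genes were FAM149A (-3.59), the guanine nucleotide exchange factor DOCK10 (-3.49), the zinc finger gene ZNF12 (-3.49), RILPL1 (-3.45), the Polycomb-group gene SFMBT2 (-3.42), the centrosome gene CEP192 (-3.38) and the semaphorin SEMA4D (-3.30). In 10 of the 12, wide internal peaks gave at least 50% of the count. The exceptions were ZNF12, with a single peak of 248 bp, and SEMA4D, whose main peak was 441 bp wide. In HOS 11 of the 12 were above 0, up to 1.68 in RILPL1 (768 and 3139 counts).

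The 12 highest genes rested on single narrow peaks instead. RGSL1, a gene of the regulator of G protein signalling family, went from 11 to 193 counts, a shift of 3.54 (2.76 to 4.66) over 1 peak of 178 bp. PARP15, a mono-ADP-ribosyltransferase, went from 218 to 2857 counts (3.21), with 99.4% in a narrow internal peak. The phosphatase gene DUSP8, which acts on MAP kinases, went from 292 to 2558 counts (2.63) and the centriole gene POC1B from 287 to 2530 (2.64). These 2 genes lie on different chromosomes, 11 and 12, yet had nearly equal counts in each 143B library and in HOS NC (686 and 683), and 1472 and 1729 in HOS sgNAT10. The others were the glutamate receptor GRIK3 (3.07), the photoreceptor channel CNGA3 (2.94), the NKG2D ligand RAET1G (2.89), ASB15 (2.63), SOBP (2.62), the methionine aminopeptidase METAP1 (2.59), the phosphatase PPEF1 (2.57) and YWHAH of the 14-3-3 family (2.51). In all 12, 1 peak gave at least 80.6% of the count. In 10 that peak was narrow and internal, and in 7 it was 180 to 200 bp wide. The exceptions were YWHAH, with a 3′-end peak 9 bp from the end, and RAET1G, with a 5′-end peak. In HOS 9 of the 12 were above 0.

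**Figure D4:**
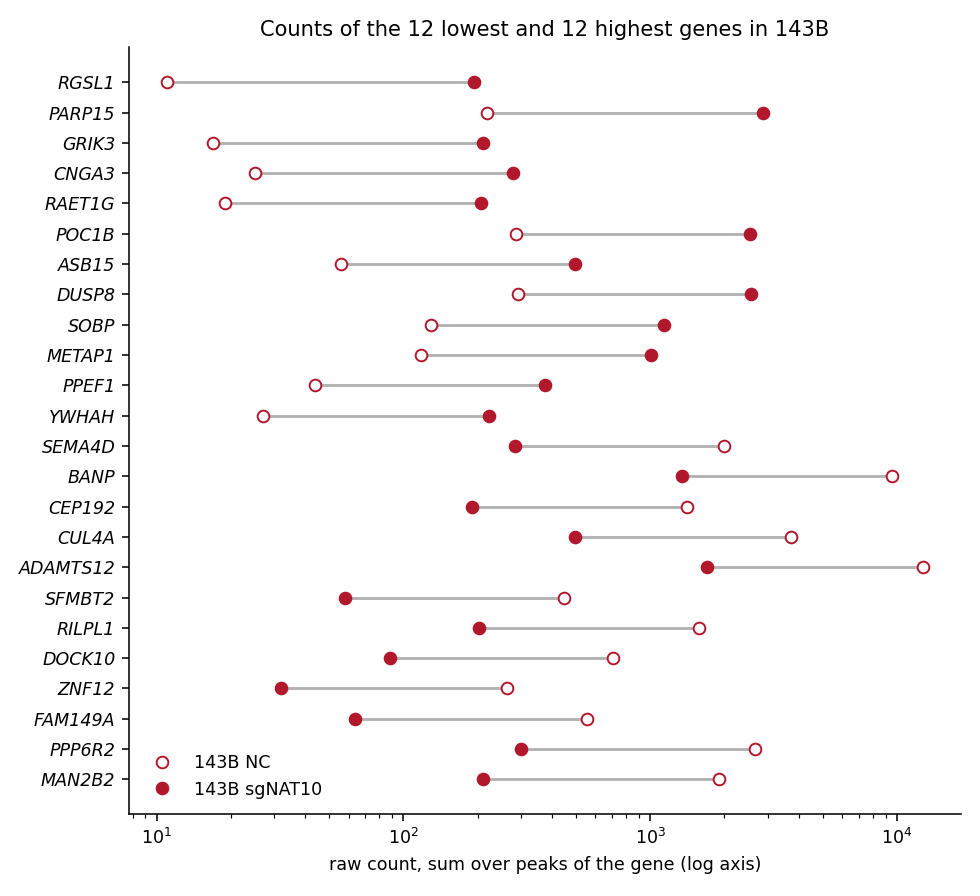
Raw counts (log axis), summed over the peaks of each gene, in 143B NC (open circles) and the library labelled sgNAT10 (filled circles) for the 12 genes with the lowest and the 12 with the highest shift. The lowest genes run from -3.66 (MAN2B2) to -3.30 (SEMA4D) and the highest from 2.51 (YWHAH) to 3.54 (RGSL1).

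The same widths recurred among all peaks of the series that were much higher. Of 3233 peaks averaging at least 200 counts, in genes or outside them, 75 (2.32%) were at least 4-fold higher. Among these, 42 (56%) were 180 to 200 bp wide against 12.2% of all 3233, and 11 (14.7%) shared 1 exact width, the commonest among them, against 2.47%. They lay in protein-coding genes in 31 cases and outside annotated genes in 30, and 65 were above 0 in HOS, with a median of 0.83. These widths were chosen after the values were seen. How reads that map to several places were handled was not given in the sources used here.

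Among the 10 genes of highest count, several owed it to an overlapping annotation. The 5 peaks of LOC102724250 (120529 and 60502 counts, -1.49) and the 3 of PCBD2 (91643 and 50613 counts, -1.35) all lie on pseudogene copies of mitochondrial genes, such as MTND2P28 and MTND5P11. RPS29 (34886 and 36288 counts, -0.44) took 83.3% of its count from a peak on RN7SL1, the RNA of the signal recognition particle. HMGA1, a chromatin architecture protein, went from 32001 to 10262 counts, a shift of -2.14 (0.78 in HOS), mainly in a 3′-end peak of 1401 bp. SERINC2 (-1.80) took 95.6% of its count from a wide internal peak of 1223 bp that also lies on the long noncoding RNA gene LOC124903900. SEC14L1 (-1.39) had a single 3′-end peak of 1789 bp, 155 bp from the end, which went from 18073 to 9718 counts. ARHGEF16, a guanine nucleotide exchange factor, went the other way, from 3515 to 27645 counts (2.48), with 98.6% in an internal peak of 183 bp. The rest were RPS21 (9040 and 19805 counts, 0.63), the chaperone HSP90AA1 (8624 and 14678 counts, 0.27) and RPL13A (12593 and 13010 counts, -0.45), where 1 peak lies on the small nucleolar RNA SNORD32A.

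Read by function, the lists with the highest medians in 143B were the proteasome and nuclear-encoded oxidative phosphorylation. Over all 2760 genes, 13.7% were at least 2-fold higher and 24.7% 2-fold lower. Some of the highest members named here and below, such as RPL9, TPI1, CDK1 and NRAS, took their whole count from 3′-end peaks. Others, such as PSMG1, CYCS and MATR3, rested on a narrow internal peak instead. In the proteasome, the protease of ubiquitin-tagged proteins, 12 of 28 measured genes were at least 2-fold higher and none 2-fold lower, with a median of 0.96 against -0.02 over all genes. The core subunit PSMA7 went from 1730 to 4964 counts (1.02), PSMA4 from 382 to 1315 (1.28) and the assembly chaperone PSMG1 from 36 to 211 (2.03). PSMD2 had 0.05, and the activator PSME4 was lowest at -0.66. Of 52 nuclear genes of oxidative phosphorylation, 17 were 2-fold higher and 1 lower (median 0.85). Cytochrome c, CYCS, went from 88 to 699 counts (2.48), COX7C from 1267 to 3438 (0.94) and ATP5F1E from 1471 to 3594 (0.79), while ATP5F1B, the catalytic beta subunit of ATP synthase, went from 570 to 352 (-1.19). Genes of mitochondrial import and chaperones were less high (2 of 21 higher and 1 lower, median 0.44), with HSPD1 at 0.44, IMMT at 1.38 and the phosphate carrier SLC25A3 at -1.11.

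Ribosomal proteins were higher by small, similar amounts. Of 74 cytosolic ribosomal protein genes, 68 were above 0 and the median was 0.58. At 2-fold, 7 were higher and none lower, against 13.7% and 24.7% of all genes. RPL9 was the highest, from 619 to 2931 counts (1.74). In the mitochondrial ribosome, 10 of 38 were 2-fold higher and none lower (median 0.70), with MRPL43 at 1.86 (36 and 187 counts), MRPS34 at 0.91 and MRPL21 at -0.56. Translation factors spread to both sides (4 of 33 higher, 6 lower, median 0.23). Their share of higher genes, like that of the nucleolar genes below, was close to that of all genes. EEF1A1, which brings aminoacyl-tRNA to the ribosome, had 9703 and 13406 counts (-0.03), the translocase EEF2 7404 and 5997 (-0.80), EIF6 1.38 and EIF4B -1.26. Aminoacyl-tRNA synthetases lay at a median of 0.06, which is -0.03 with DESeq2-type size factors, and ranged from QARS1 at 1.67 to CARS1 at -1.60. Among nucleolar ribosome assembly genes (4 of 26 higher, 3 lower, median 0.16), NPM1 had 6279 and 8075 counts (-0.13), NCL 5320 and 6806 (-0.14), NOLC1 1.32 and NOC2L -1.40.

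Genes of RNA processing were mixed, where 13.7% of all genes were 2-fold higher and 24.7% lower. The hnRNP list was close to both shares and the spliceosome list to that of higher genes. In the spliceosome list 5 of 36 were 2-fold higher and 4 lower (median 0.22): SNRPD2 went from 837 to 1854 counts (0.65) and SRSF7 from 51 to 251 (1.78), whereas SF1, the branch point protein, went from 3427 to 1389 (-1.80) and SF3A2 from 1965 to 775 (-1.84). For SF1 the 3′-end peaks alone had 0.07 and the narrow internal peaks -2.31. Of 40 hnRNP and related genes, 5 were higher and 9 lower (median -0.14, but 0.20 with library totals alone). HNRNPUL1 was lowest, from 3957 to 1323 counts (-2.08), HNRNPA3 had -1.38 and MATR3 2.19 (34 and 224 counts). In mRNA decay 4 of 10 were lower and none higher (median -0.79), among them the deadenylase scaffold CNOT1 (433 and 141 counts, -2.11) and AGO2 (169 and 47 counts, -2.32). RNA modification genes (2 of 9 higher, 4 lower) ranged from NSUN5 at 1.18 to CBLL1, a part of the m6A writer complex, at -2.30 (883 and 253 counts), with 3 of 9 made mainly of wide peaks.

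Cell cycle genes had medians above 0 over all peaks, and 13.7% of all genes were 2-fold higher and 24.7% lower. Of 12 G2/M genes, 4 were 2-fold higher and none lower (median 0.57): CDK1, the mitotic kinase, went from 40 to 172 counts (1.59), UBE2C from 136 to 278 (0.53) and AURKA from 482 to 468 (-0.54). Among 22 genes of G1/S and replication, 5 were higher and 2 lower (median 0.45, but -0.65 from peaks away from the ends and -0.15 from narrow internal peaks), with UHRF1 at 2.32 (28 and 202 counts), CCND1 at -0.56 and POLA2 at -2.74 (270 and 56 counts). DNMT1, the maintenance DNA methyltransferase, had -1.47 over all peaks, 0.71 over its 3′-end peaks and -1.66 over its narrow internal peaks. Replication-dependent histones, whose mRNAs have no poly(A) tail, had 1 of 7 lower and none higher (median -0.35, and -1.70 in HOS), from H2BC12 at 0.96 to H4C2 at -1.20. In cohesin, condensin and DNA repair, 1 of 19 was higher and 3 were lower (median -0.33, but 0.01 with library totals alone), with SMC4 at 0.75 and MDC1 at -1.36.

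Metabolic lists had medians on both sides of 0, where 13.7% of all genes were 2-fold higher and 24.7% lower. Glycolysis had a median of 0.04 (-0.04 with DESeq2-type size factors), with GAPDH at 0.19 (2184 and 3507 counts), PKM at -0.74 (4937 and 4175 counts) and TPI1 at 1.398 (469 and 1747 counts). In nucleotide and folate metabolism 13 of 15 were above 0 (median 0.33). The 10 genes of sterol and fatty acid synthesis (median 0.21, but -0.63 at a mean count of 200 or more) ran from FDPS at 1.79 to the desaturase SCD, which went from 8871 to 3199 counts (-1.97), with FASN at -1.52. Of 19 targets of ATF4 and amino acid synthesis genes, 7 were lower and 1 higher (median -0.55): GPT2 went from 2148 to 331 counts (-3.19, and 1.33 in HOS), the arginine transporter SLC7A1 from 4411 to 1369 (-2.18) and PSAT1 from 1799 to 761 (-1.74), against PHGDH at 0.40 and SHMT2 at 1.25. Antioxidant and iron genes had 4 of 16 higher and 3 lower (median 0.59, but -0.45 from peaks away from the ends), from AKR1B1 at 1.32 and TXN at 0.98 to the superoxide dismutase SOD2 at -2.12 and TXNRD2 at -2.65.

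Folding and traffic genes also had both signs, beside 13.7% of all genes 2-fold higher and 24.7% lower. Cytosolic chaperones (3 of 20 higher, 2 lower, median 0.23) included HSP90AB1 at -0.44, HSPA8 at -0.35, CCT4 at 1.17 and BAG3 at -1.20. In the unfolded protein response list (1 of 11 higher, 1 lower, median 0.15), HSP90B1 went from 1705 to 3416 counts (0.50), HSPA5 from 129 to 409 (1.16), CANX had -0.57 and the translocon gene SEC61A1 -1.39. Vesicle coat and Golgi genes (4 of 23 each way, median 0.42, but -0.83 from peaks away from the ends) ran from TMED2 at 2.01 to SEC24B at -1.92. Lysosome and autophagy genes (4 of 15 higher, 3 lower) had a median of -0.06, which was 0.29 with library totals alone and 0.76 at a mean count of 50 or more, with ULK1 at -0.81, of which 81.0% came from wide peaks, and ATP6V1B2 at 1.39. Nuclear transport genes (2 of 18 each way, median -0.07, or 0.28 with library totals alone) had RAN at -0.02 and IPO9 at 1.57.

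Of the matrix, adhesion and cytoskeleton lists, that of the matrix lay lowest. In the extracellular matrix list 12 of 27 were 2-fold lower and 2 higher (median -0.70), where 24.7% of all genes were lower. The median was 0.75 from peaks within 500 bp of an end, over those genes of the list that could be scored on such peaks. After ADAMTS12 came the laminin LAMA5, from 3096 to 1224 counts (-1.84, and 2.16 in HOS), and the fibrillar collagen COL5A1 had 1744 and 1628 (-0.60), while CCN4 was highest at 1.31. Integrin and focal adhesion genes (3 of 21 higher, 5 lower, median -0.34, or 0.00 with library totals alone) ran from GIT2, with 1 peak at 733 and 4108 counts (1.99), to talin, TLN1, at -2.12. Of 47 actin and myosin genes, 4 were higher and 10 lower (median -0.23, or 0.12 with library totals alone), with ACTB at -0.23 (3253 and 3917 counts), ACTG1 at -0.21, PFN2 at 1.98 and TPM4 at -1.93 (1172 and 434 counts). Tubulin and microtubule genes had 3 of 29 higher and 8 lower, TUBA1B at 0.35, TBCA at 1.02 and CEP192 at the bottom; their median of -0.04 was 0.31 with library totals alone. The shares of integrin, actin and tubulin genes that were 2-fold lower were close to the 24.7% of all genes.

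Signalling and chromatin lists had medians below 0, and against 24.7% of all genes 2-fold lower and 13.7% higher, their lower members outnumbered their higher ones. In RAS-MAPK signalling 8 of 17 were 2-fold lower and 2 higher (median -0.97). NRAS, with 1 peak near the 3′ end, went from 46 to 216 counts (1.72). EPHA2, with 53.6% of its count in wide peaks, went from 2603 to 771 (-2.25) and PHLDA1 from 2813 to 1039 (-1.93). Among receptor tyrosine kinases 5 of 13 were lower and none higher (median -0.76), with EGFR from 1873 to 590 counts (-2.16), AXL at -0.96 and FLT1 at 0.16. Wnt signalling had 7 of 13 lower and none higher (median -1.04), from BCL9L at -2.29 to DVL1 at 0.32, with CTNNB1, the gene of beta-catenin, at 0.03. The PI3K-AKT-mTOR list had 4 of 11 lower and none higher (median -0.88), with DEPDC5 at -2.56, AKT1 at -0.59 and RPS6KB2 at 0.85. Of 41 chromatin remodellers and histone-modifying enzymes, 19 were lower and none higher (median -0.92): the methyltransferase EHMT1 went from 3503 to 1087 counts (-2.18) and the demethylase KDM6B from 867 to 182 (-2.74), while HDAC2 was highest at 0.89. POLR2A, the largest subunit of RNA polymerase II, went from 9752 to 2248 counts (-2.61), and 6 of 16 genes of the Mediator and polymerase list were lower and none higher (median -0.63).

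Regulators of the osteoblast and mesenchymal lineage had the lowest median of the lists with at least 5 genes measured, -1.14. In this list 8 of 15 were 2-fold lower and none higher, against 24.7% and 13.7% of all genes. TWIST2, a repressor of osteoblast differentiation, went from 19869 to 3288 counts over 19 peaks (-3.09), with 88.1% of its count in wide internal peaks, and SOX9, the cartilage regulator, went from 2149 to 633 (-2.26). TBX15 had -0.61. RUNX2, the master regulator of osteoblasts, went from 171 to 68 counts (-1.81, and 0.78 in HOS). By contrast, LGALS1 and S100A6, abundant mesenchymal markers with 1 peak each, went from 980 to 2715 (0.97) and from 1072 to 2859 counts (0.92). The S100A6 peak is a 3′-end peak, a class that was higher in general. YAP-TEAD targets had 2 of 19 higher and 6 lower (median -0.22, or 0.13 with library totals alone), with CCN2 at 1.21 and VGLL3 at -2.34. Immediate early genes had 2 of 5 lower and none higher, with JUN from 1304 to 781 counts (-1.24) and EGR3 at -2.36. TGF-beta and BMP signalling (1 of 6 higher, 2 lower) ran from ID1 at 1.13 to SMURF1 at -2.06. Of 26 ubiquitin ligases and deubiquitinases, 3 were higher and 7 lower (median -0.31, or 0.04 with library totals alone). The lists of Notch and Hedgehog, p53 and interferon genes had 4, 5 and 7 genes measured, none 2-fold higher and 2, 1 and 1 lower.

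The spread between functions depended on the kind of peak read. Over all peaks, 43 lists with at least 5 genes measured had medians from -1.14 to 0.96, 20 of them above 0. From 3′-end peaks alone, summed to an average of at least 50 counts, 31 lists could be scored and 30 were above 0, up to 1.18, with the median of 903 genes at 0.85. The exception was ATF4 targets and amino acid synthesis, at -0.07 over 8 genes. The width of the interquartile range over list medians was 0.33 from 3′-end peaks (31 lists), 0.67 from narrow internal peaks (39 lists) and 0.68 over all peaks (43 lists). The lists, and the genes within a list, differ between kinds of peak, because a gene was scored only where it had such peaks. At the 3′ end, cytosolic ribosomal proteins (0.86, 19 of 35 genes above the median of all genes), mitochondrial ribosomal proteins (0.96, 17 of 26) and translation factors (0.88, 9 of 16) lay close to all genes. The proteasome was at 1.14 (12 of 15) and oxidative phosphorylation at 1.12 (23 of 30), and chromatin genes at 0.25 (0 of 5). In narrow internal peaks the list medians ran from -1.40 to 0.83. Against -0.13 over 2308 genes, oxidative phosphorylation had 0.83 (25 of 27 genes above that median), the proteasome 0.81 (11 of 15), ribosomal proteins 0.44 (34 of 41), chromatin genes -0.76 (10 of 31) and regulators of the osteoblast lineage -1.25 (2 of 15). From peaks over 500 bp from both ends, the medians of 12 lists that were above 0 over all peaks lay below 0. Mitochondrial import had medians on both sides of 0, at 0.78 over 20 genes from 3′-end peaks and -0.64 over 11 genes from narrow internal peaks. Lists also differed in gene length: the median span was 4.69 kb for ribosomal proteins, 9.38 kb for oxidative phosphorylation, 101 kb for chromatin genes and 106 kb for osteoblast regulators, and the part of gene length in the list medians was not tested.

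**Figure D5:**
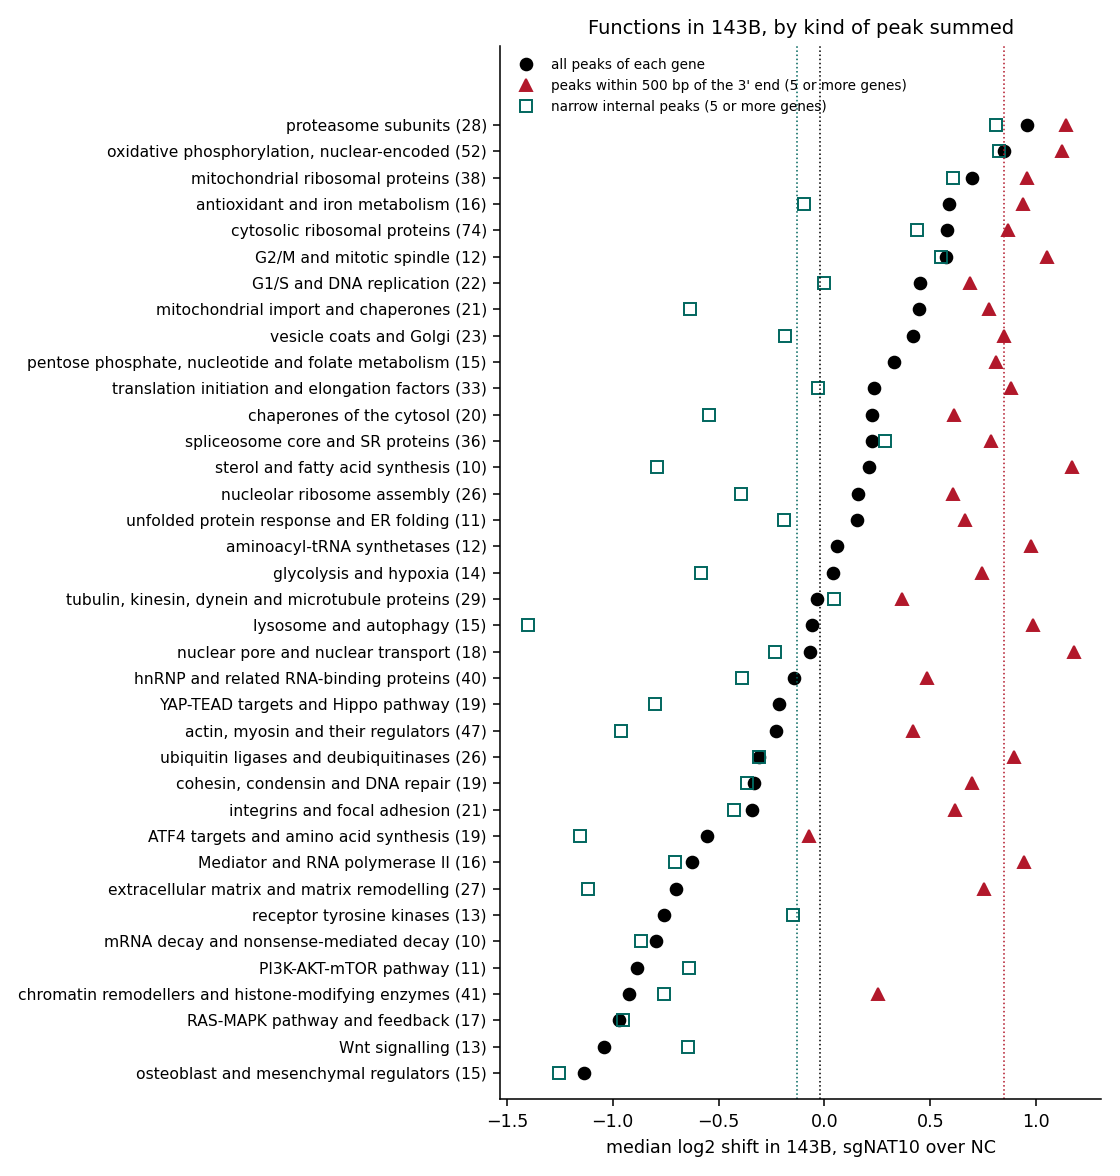
Median log2 shift in 143B of each gene list with at least 10 genes measured (number in brackets), from all peaks of each gene (circles), from 3′-end peaks (triangles) and from narrow internal peaks (squares). Dotted lines are the medians over all genes, -0.02, 0.85 and -0.13 in the same order; triangles lie above 0 in every list drawn except ATF4 targets and amino acid synthesis, at -0.07.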

How the data were processed

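The deposited values are raw read counts over 31395 shared peak intervals, with a separate table for each line, per the file headers. Column names give line and genotype but no assay, and were taken as antibody libraries because the tables hold RIP counts. Inputs were not used here, and 7 blank columns were left out. The submitters' processing notes name GRCh38, FastQC, STAR, SAMtools and deepTools. The peak caller, counting tool and strand setting are not given in the sources used here, nor whether starts count from 0 or 1, so positions are printed as deposited and sense and antisense reads cannot be told apart. From the authors' counts, TMM factors were computed with edgeR 4.0.16 (R 4.3.3) after filterByExpr (minimum count 10, minimum total 15) over the 4 libraries. Peaks were assigned to the single protein-coding gene they overlapped in a RefSeq table of 59792 genes (GRCh38.p14), and gene values are sums. Peaks of 710 intervals overlapped several genes and 11583 none. Gene comparisons used a mean count of 100, peak classes one of 50. No test was made. Scripts were checked on simulated data. Named genes are NAT10, the 12 highest and lowest genes past 2-fold under every scaling, the 10 of highest count, in each list the 4 of highest count and the extremes, and the 10 extremes along genes; some genes under this rule are not reported here. RUNX2, LGALS1 and S100A6 are marker genes named by the same rule. The genes, lists and widths were chosen with earlier results of these data known.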

Additional observations from a re-analysis of the deposited data

Results flagged for a closer look

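The direction of several values differed between 143B and HOS, which have 1 library a side each, and these differences were not tested. NAT10 had a shift of 0.50 in 143B and -1.85 in HOS. Peaks near 3′ ends had medians of 0.85 and -0.69, and wide internal peaks -2.22 and 0.91. List medians were 0.70 and -0.77 for mitochondrial ribosomal proteins, 0.96 and -0.89 for the proteasome, 0.85 and -0.58 for oxidative phosphorylation, 0.59 and -0.59 for antioxidant and iron metabolism, and 0.57 and -0.97 for G2/M genes.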

How the results depend on the processing

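No paired analysis was possible because each genotype of a line has 1 library and the result comes from no test. Counts of 2-fold differences moved with scaling, count minimum and the choice of peaks, and the cause was not tested unless fewer peaks or genes entered. With upper quartile factors 571 genes were higher, and with library totals alone 704 genes and 912 peaks. At an average of at least 50 counts, 737 of 4130 genes were higher and 894 lower, with 1039 peaks higher and 2054 lower. With 200 or more, 159 of 1613 genes were higher and 440 lower, with 232 peaks higher and 633 lower. Without a minimum, 1586 of 6773 genes were higher and 1281 lower, so for genes the higher side became the larger. The peaks were then 3572 higher and 4249 lower. The main counts of peaks were 525 higher (14.9%) and 1280 lower (36.3%) of 3530. From peaks within 500 bp of an end, 216 of 859 genes were higher and 99 lower. From the other peaks 224 of 2127 genes were higher and 688 lower, and from peaks under 300 bp 345 of 2298 were higher and 392 lower. In settings chosen after seeing the data, 3′-end peaks gave 189 higher and 28 lower of 625 genes. Narrow internal peaks gave 166 higher and 336 lower of 1404. The within-gene difference for peaks near an end was 1.17 with a distance of 250 bp, 0.78 with 1000 bp, 0.97 and 0.98 with at least 100 or 20 counts per peak on average, 0.998 with a prior count of 5, 1.21 from peaks under 300 bp, 0.83 in genes with at least 3 peaks and 1.07 from summed counts. For 3′-end peaks it was 1.41, 1.23, 1.35, 1.41, 1.36, 1.51, 1.46 and 1.39 under the same settings. List medians changed sign in 12 lists from peaks away from the ends, 10 from peaks near an end, 11 with library totals alone, 5 with upper quartile factors, 4 with DESeq2-type size factors and 5 without a minimum. At a mean count of 200 or more, vesicle coats and Golgi (-0.00) and sterol synthesis (-0.63) did so. The 12 lowest and 12 highest genes were picked as past 2-fold under every scaling, so no scaling could change their sign. Their shifts kept their sign under the other settings too, where the gene could be scored. In each of these genes 1 peak gave at least 67.6% of the count, so a choice of peaks mostly kept or dropped the gene. Low counts leave single genes imprecise, as their intervals show.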
